A study of Mus musculus with 10 samples.

Results

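The genes described here are 36 that build, modify or surround the extracellular matrix of the liver, together with genes that mark its stellate cells. They were taken as a named list of collagens, elastic fibre proteins, fibulins, proteoglycans, matrix enzymes and their inhibitors, contractile proteins, stellate cell markers and the ligand *Tgfb1*. The question asked of the list was whether the rise of *Fbln1*, the gene of fibulin-1, was shared by the other 35 genes when 5 MI-883-treated livers were set against 5 control livers. All 36 genes are among the 16647 genes of the count table, and all 36 passed the minimum of 60 counts summed over the 10 livers that left 13219 genes for testing. The rise of *Fbln1* was known when the list was drawn up, so its values below are the reference for the others and not a new result.

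Liver RNA came from male humanized PXR-CAR-CYP3A4/3A7 mice from Taconic, in which the human receptors PXR and CAR and human CYP3A genes take the place of the mouse ones. All animals received a high-fat diet (30% fat), started when they were 10 weeks old or older and fed for 8 weeks before and throughout 4 weeks of treatment. The MI-883 group received 5 mg/kg of MI-883, a dual ligand of CAR and PXR, by oral gavage 3 times per week. The control group received the vehicle alone (5% DMSO, 5% PEG300 and 90% corn oil) by the same route and schedule, and each library came from a different animal. Whole liver tissue was sequenced, so no cell type was isolated.

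Hepatic stellate cells lie between hepatocytes and sinusoidal endothelium, where they store vitamin A as retinyl esters. When activated they resemble myofibroblasts, acquire smooth muscle actin, respond to TGF-beta and PDGF and become a main source of fibrillar collagen. Fibulins are secreted glycoproteins that bind elastic fibres, basement membranes and proteoglycans, and fibulin-1 also binds fibronectin, laminins, nidogen and fibrinogen.

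Library totals lay between 23513665 and 36221514 counts, and no library was a copy of another. *Cyp2b10*, a target of CAR, checked the treatment: it was between 24.4 and 44.3 CPM (counts relative to the library size, scaled for library composition) in the control livers and between 634 and 1375 CPM in the MI-883 livers. Of the 13219 genes tested with edgeR, 101 were called higher and 35 lower in the MI-883 livers at an adjusted p under 0.05, together 1.03%.

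The regions around the start sites of the 3 fibulin genes are shown because the fibulins carry the main contrast of this account. Each window runs from 250 bases before to 50 bases after a RefSeq start site in GRCm38.p6, on the strand of the gene. Capitals mark GGGCGG, the core of the GC box, on either strand, and AGTTCA, a half-site of nuclear receptors. The table holds 2 windows each for *Fbln1* and *Fbln5*, and the ones shown, chosen after the matches were seen, are those with GGGCGG.
Fbln1, chr15:85205758-85206057, + strand: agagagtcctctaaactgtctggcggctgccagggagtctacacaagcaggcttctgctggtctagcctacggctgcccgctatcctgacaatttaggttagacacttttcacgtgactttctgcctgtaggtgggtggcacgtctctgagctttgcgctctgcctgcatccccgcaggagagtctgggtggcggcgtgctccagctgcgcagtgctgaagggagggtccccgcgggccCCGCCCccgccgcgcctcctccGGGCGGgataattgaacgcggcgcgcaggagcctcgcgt
Fbln2, chr6:91212514-91212813, + strand: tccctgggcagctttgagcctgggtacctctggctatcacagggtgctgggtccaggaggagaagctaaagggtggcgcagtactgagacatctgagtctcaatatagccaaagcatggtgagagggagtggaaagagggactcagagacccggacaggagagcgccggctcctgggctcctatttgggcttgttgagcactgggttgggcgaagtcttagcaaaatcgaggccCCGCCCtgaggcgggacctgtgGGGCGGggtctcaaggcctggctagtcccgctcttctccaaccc
Fbln5, chr12:101819070-101819369, - strand: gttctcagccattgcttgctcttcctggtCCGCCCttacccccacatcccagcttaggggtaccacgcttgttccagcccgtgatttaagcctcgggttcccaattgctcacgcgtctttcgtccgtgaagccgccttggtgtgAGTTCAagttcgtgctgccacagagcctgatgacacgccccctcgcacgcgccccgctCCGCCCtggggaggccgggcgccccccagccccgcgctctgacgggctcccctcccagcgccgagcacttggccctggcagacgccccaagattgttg
The *Fbln1* window holds GGGCGG at bases 240 to 245 on the minus strand and at bases 262 to 267 on the plus strand. The *Fbln2* window holds it in the same arrangement, at bases 235 to 240 and 257 to 262. In the *Fbln5* window it lies on the minus strand at bases 30 to 35 and 203 to 208, and AGTTCA lies at bases 145 to 150. The other *Fbln1* window, around the first base of the gene, holds none of these motifs, and the other *Fbln5* window holds AGGTCA at bases 250 to 255. GGGCGG occurs in 35.7% of all 32851 start-site windows of this length, and AGTTCA in 14.0%. Neither AGTTCA nor AGGTCA, which occurs in 16.3% of windows, was found on either strand in the windows of *Fbln1* and *Fbln2* shown. Direct repeats of AGGTCA or of AGTTCA with 4 free bases between the copies, a spacing to which CAR and PXR can bind with RXR, were found in none of the 3 windows shown on either strand and in 0.0152% and 0.0122% of all windows. TATAAA, which occurs in 13.6% of windows, was found in no window of the 3 genes.

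*Fbln1* (Entrez gene 14114, mm10 chromosome 15, 85205949 to 85286294) was at 0.279, 0.656, 0.450, 0.492 and 0.483 CPM in control livers 1 to 5 and at 1.85, 2.57, 1.48, 4.39 and 4.96 CPM in MI-883 livers 1 to 5. Every MI-883 liver lay above every control liver, with livers 4 and 5 highest among the treated. These levels rest on 10 to 21 counts in the control libraries and 40 to 140 counts in the MI-883 libraries. The group means were 0.472 ± 0.134 and 3.05 ± 1.55 CPM (SD, n = 5). The fitted log2 fold change was 2.68 (SE 0.369, 95% interval 1.89 to 3.48), a 6.43-fold rise with an edgeR adjusted p of 0.00294. By this fold *Fbln1* ranked 19 among all genes tested. It was called higher in each of the 10 fits that left out 1 liver, with log2 fold changes of 2.43 to 2.86.

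Of the 35 genes other than *Fbln1*, 0 were called higher by edgeR, where 0.764% of all genes tested were. None was called lower, where 0.265% of all genes were, and 0 were lower at an unadjusted p under 0.05, where 7.49% of all genes were. With DESeq2, which also called *Fbln1*, 3 of the 35 were called higher, namely *Col4a2*, *Sparc* and *Bgn*, where 2.20% of all genes were, and again 0 were called lower, against 1.30%. The fitted fold change was above 0 for 33 of the 35 genes, against 51.0% of all genes tested. The median log2 fold change was 0.41 over the 35 genes other than *Fbln1* and 0.0045 over all genes tested. At an unadjusted p under 0.05, 16 of the 35 were higher, against 8.09% of all genes. These genes tend to vary together from liver to liver, so the counts of members are not counts of independent results.

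The size of the rise of *Fbln1* was not reached by most other genes of the list. The 95% interval of the log2 fold change lay wholly below that of *Fbln1* for 34 of the other 35 genes, and that of *Lox*, which rests on at most 22 counts per library, reached into it. For 22 of the 35 the interval lay wholly below 1, so that a doubling was outside it. It lay above 0 for 16 genes, *Lox* among them, and held 0 for 19. Adjusted p values of the 35 ran from 0.0581 (*Sparc*) to 0.974 (*Lrat*) with edgeR.

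**Figure D1:**
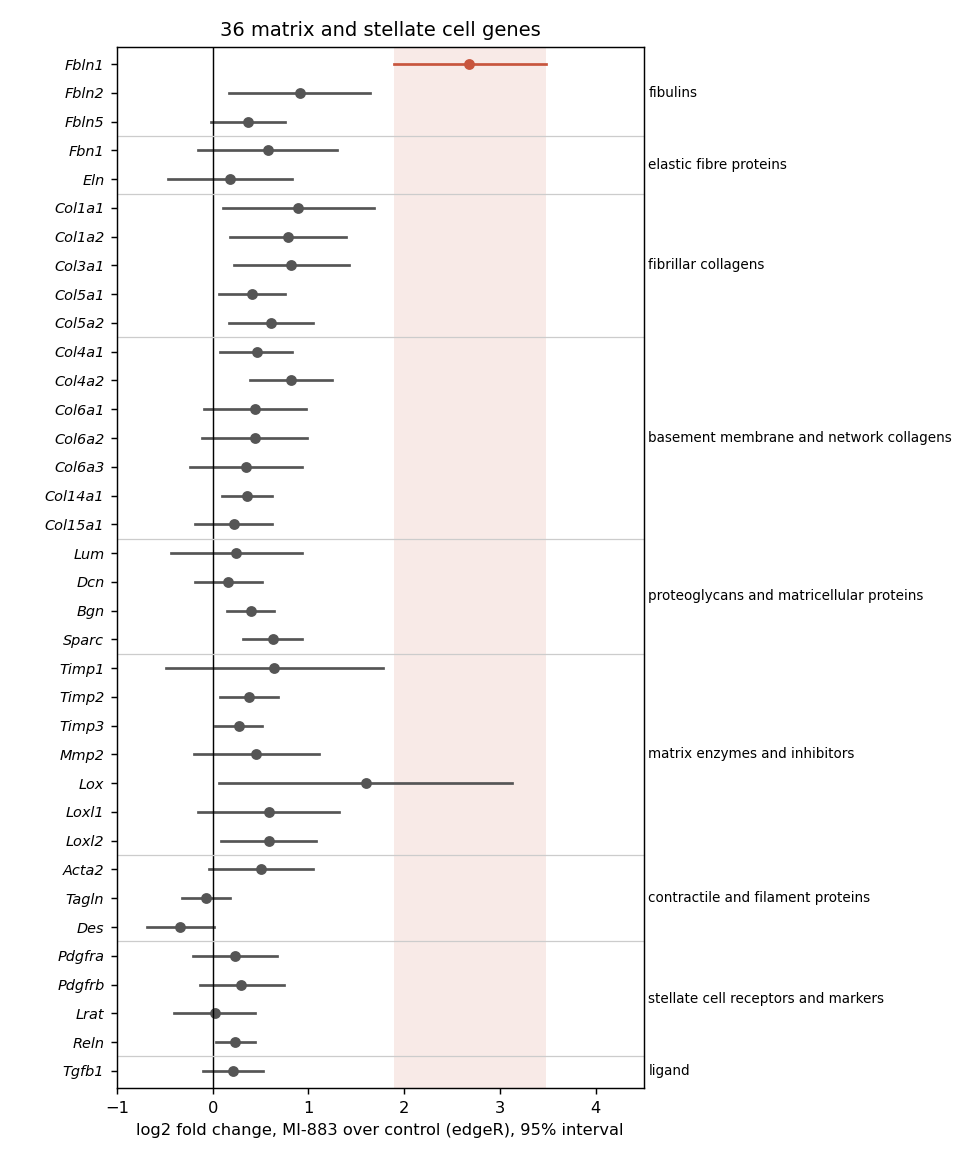
Log2 fold change of each of the 36 genes, MI-883 over control (horizontal axis), with points for the edgeR estimate, bars for its 95% interval and genes grouped by role. The shaded band is the interval of *Fbln1*, 1.89 to 3.48: the bar of *Lox* reaches into it, all other bars end below it, and 34 of the 36 points lie to the right of 0.

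The other fibulins were fitted higher by smaller amounts, and neither was called. *Fbln2*, whose product bridges elastic fibres and basement membranes, was at 1.76, 2.37, 1.92, 1.88 and 0.614 CPM in control livers 1 to 5 and at 4.07, 2.12, 3.22, 1.61 and 5.11 CPM in MI-883 livers 1 to 5. The groups overlapped, since MI-883 livers 2 and 4 lay within the control range while livers 1, 3 and 5 lay above it. The groups differed by 0.91 on the log2 scale in the fit (95% interval 0.17 to 1.64, edgeR adjusted p = 0.225). *Fbln5*, needed for elastic fibre assembly, was at 5.50, 6.22, 5.39, 6.31 and 3.55 CPM in the control livers and at 8.99, 5.71, 7.81, 5.09 and 7.41 CPM in the MI-883 livers, in the same order. Again MI-883 livers 1, 3 and 5 lay above all controls and livers 2 and 4 did not. The fitted log2 difference was 0.37 (95% interval -0.02 to 0.76, edgeR adjusted p = 0.340).

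The 5 relatives of the family that are not on the list gave no call with edgeR, with 3 fitted higher and 2 lower. Log2 fold changes were 0.32 for *Efemp1* (fibulin-3), 0.28 for *Efemp2* (fibulin-4), 0.03 for the hemicentin *Hmcn1*, -0.21 for *Hmcn2* and -0.22 for *Fbln7*. Their edgeR adjusted p values ran from 0.468 to 0.942. Per kilobase of exon, the mean level of *Fbln1* in control livers, 0.108 CPM per kb, was below the 0.269 of *Fbln2* and the 0.781 of *Fbln5*. In the MI-883 livers the means were 0.698, 0.506 and 1.01 CPM per kb.

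**Figure D2:**
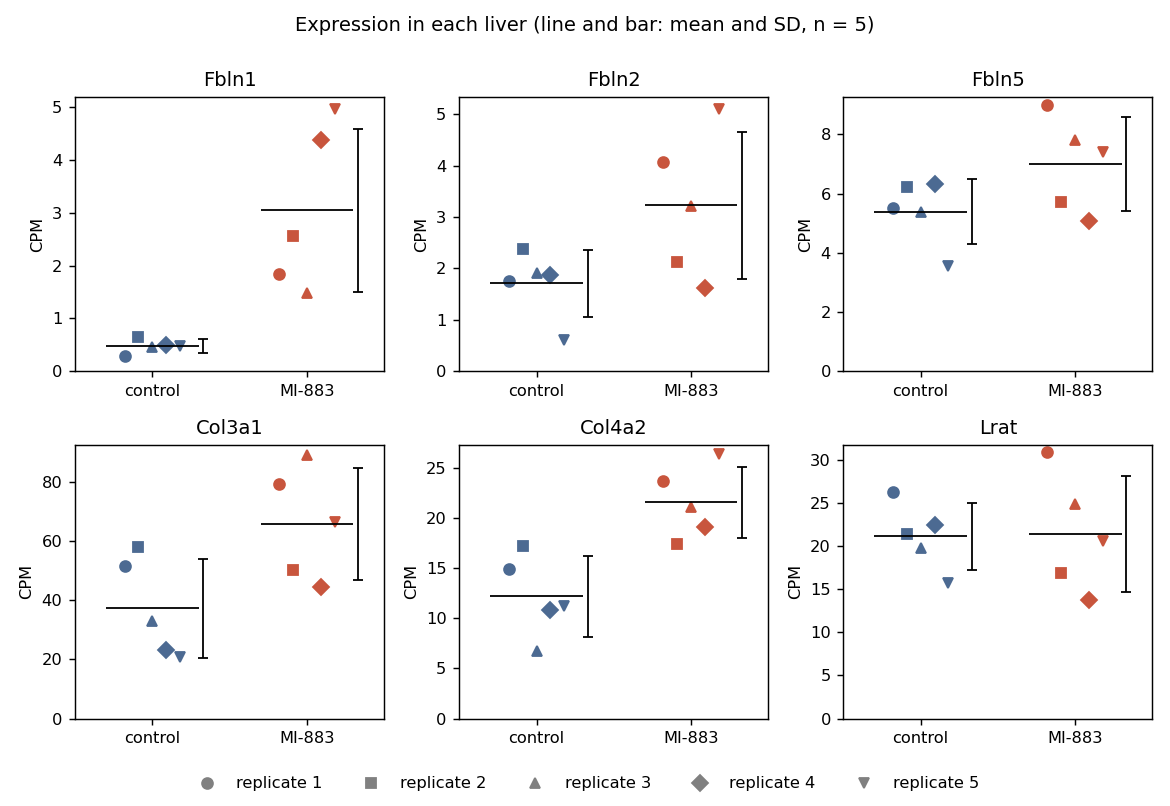
Expression in CPM (vertical axes) of 6 genes in each of the 5 control and 5 MI-883 livers, with a symbol for each replicate number, a line for the mean and a bar for the SD. *Fbln1* and *Col4a2* are the panels without overlap between groups, while in *Fbln2*, *Fbln5*, *Col3a1* and *Lrat* the treated livers 1, 3 and 5 lie above treated livers 2 and 4.

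The level of *Fbln1* was also set against that of another gene within each liver, as the log2 ratio of their CPM. Since *Fbln1* was singled out for its rise, these ratios are a description and carry no test. The ratio to *Fbln5* was between -4.23 and -2.83 in the control livers and between -2.38 and -0.21 in the MI-883 livers, which did not overlap. The mean difference was 2.17 on the log2 scale (SE 0.498). The ratio to *Lrat*, a stellate cell marker, was between -6.49 and -4.96 in the control livers and between -4.06 and -1.64 in the MI-883 livers. It too separated the groups, by 2.56 (SE 0.573).

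Against *Fbln2* and *Col1a1* the groups overlapped. The ratio of *Fbln1* to *Fbln2* differed by 1.63 (SE 0.609), and control liver 5, at -0.33, lay among the MI-883 livers. The ratio to *Col1a1* differed by 1.41 (SE 0.685), with control livers 4 and 5 above MI-883 livers 1 and 3. Over all 35 ratios of *Fbln1* to another member, the mean differences ran from 0.81 for *Lox* to 2.88 for *Des*. The groups were apart in 25 of them and overlapped in 10, which involved *Col1a1*, *Col1a2*, *Col3a1*, *Col6a3*, *Fbn1*, *Fbln2*, *Timp1*, *Mmp2*, *Lox* and *Loxl1*. All of these ratios share the *Fbln1* values.

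**Figure D3:**
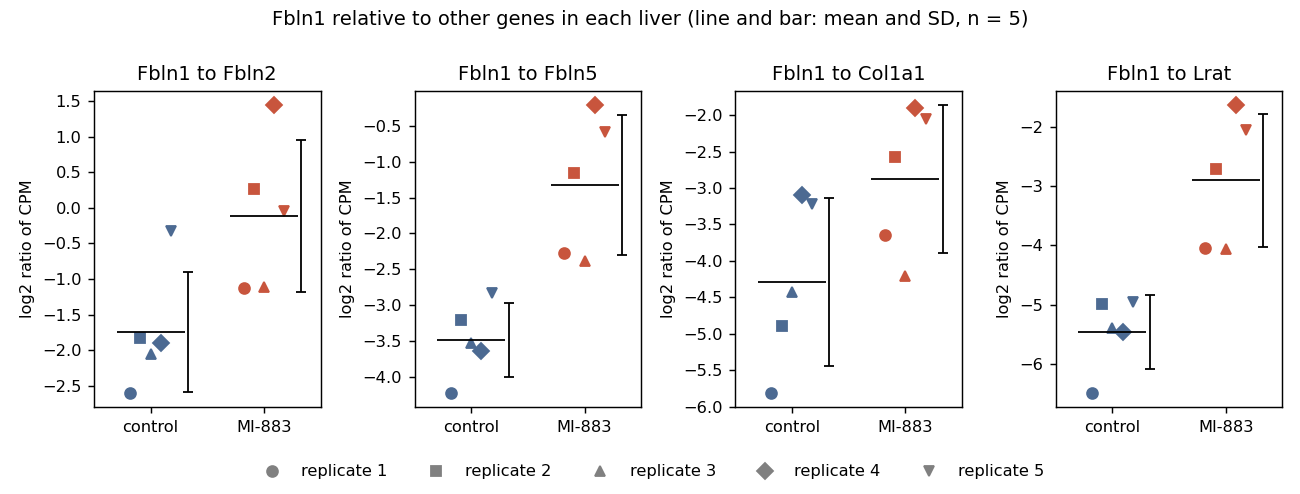
Log2 ratio of the CPM of *Fbln1* to that of *Fbln2*, *Fbln5*, *Col1a1* and *Lrat* (vertical axes) in each of the 5 control and 5 MI-883 livers, with line and bar for mean and SD. The groups are apart for *Fbln5* and *Lrat* and overlap for *Fbln2* and *Col1a1*.

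The 5 fibrillar collagens, which form the tensile fibres of scar and portal tissue, were all higher in the MI-883 livers in the fit, by a median of 0.79 on the log2 scale, and none was called. *Col3a1*, the most abundant of them per kilobase, was at 51.6, 57.9, 32.9, 23.2 and 20.8 CPM in control livers 1 to 5 and at 79.3, 50.1, 89.2, 44.4 and 66.5 CPM in MI-883 livers 1 to 5. Control livers 1 and 2 lay within the treated range and well above control livers 3 to 5. On the log2 scale the edgeR fit gave 0.82 (95% interval 0.22 to 1.42, edgeR adjusted p = 0.185). *Col1a1*, an alpha chain of type I collagen, was at 16.5, 20.0, 10.1, 4.29 and 4.69 CPM in the control livers and at 23.5, 15.3, 27.7, 16.4 and 20.8 CPM in the MI-883 livers. The control livers thus differed among themselves by more than the treated livers did, with livers 4 and 5 lowest. Its log2 fold change was 0.89 (95% interval 0.11 to 1.68, edgeR adjusted p = 0.263).

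*Col1a2*, the partner chain of *Col1a1*, had a log2 fold change of 0.79 (edgeR adjusted p = 0.200). For *Col5a1* and *Col5a2*, whose type V collagen nucleates fibrils, the values were 0.41 and 0.61 (edgeR adjusted p = 0.241 and 0.176). In each of the 5 fibrillar collagen genes, all MI-883 livers lay above the control median and 3 of the 5 lay above the highest control. Each had an unadjusted p under 0.05, from 0.0100 to 0.0284 with edgeR.

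The 7 collagens of basement membranes, beaded filaments and fibril surfaces were all fitted higher, by a median of 0.44 on the log2 scale, and 0 were called by edgeR. *Col4a2* (Entrez gene 12827, mm10 chromosome 8, 11312805 to 11449287), a chain of basement membrane collagen, was at 14.9, 17.2, 6.78, 10.8 and 11.2 CPM in control livers 1 to 5 and at 23.7, 17.4, 21.1, 19.1 and 26.3 CPM in MI-883 livers 1 to 5. The groups did not overlap, with MI-883 liver 2 just above control liver 2. It was the only one of the 35 genes other than *Fbln1* so separated, where 2.05% of all genes tested were wholly higher, and 0 members were wholly lower, against 1.93%. The log2 fold change was 0.82 (SE 0.199, 95% interval 0.39 to 1.25), with an adjusted p of 0.0764 in edgeR and 0.00434 in DESeq2. Over the 10 fits that left out 1 liver, the edgeR adjusted p ran from 0.0429, without control liver 2, to 0.190, without MI-883 liver 5. Only 1 of these fits called it.

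*Col4a1*, which lies head to head with *Col4a2* and supplies the other chain of the same collagen, had a log2 fold change of 0.46 (95% interval 0.08 to 0.83, edgeR adjusted p = 0.237). *Col14a1*, a collagen of fibril surfaces and the most abundant of these 7 genes per kilobase, was at 49.6, 62.6, 45.0, 45.3 and 39.7 CPM in the control livers and at 67.8, 56.1, 65.0, 51.7 and 69.7 CPM in the MI-883 livers. Control liver 2 alone among the controls reached the treated range. The groups differed by 0.36 on the log2 scale in the fit (edgeR adjusted p = 0.178). The type VI chains *Col6a1*, *Col6a2* and *Col6a3* had log2 fold changes of 0.44, 0.44 and 0.35, and *Col15a1* one of 0.22, and all 4 intervals held 0.

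Both elastic fibre proteins were fitted higher and neither was called. *Eln*, the gene of elastin, was at 2.40, 2.66, 1.14, 1.42 and 1.05 CPM in the control livers and at 1.95, 1.15, 2.37, 1.61 and 2.80 CPM in the MI-883 livers. The groups covered nearly the same range, and the log2 fold change was 0.18 (95% interval -0.47 to 0.83, edgeR adjusted p = 0.807). *Fbn1*, the gene of the microfibril protein fibrillin-1, had a log2 fold change of 0.58 (95% interval -0.15 to 1.30, edgeR adjusted p = 0.424). Of its exon bases, 20.1% lie opposite the exons of another gene, *Gm9913*, and the strand setting of the counting is not given in the sources used here.

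Of the proteoglycans and matricellular proteins, *Sparc* and *Bgn* came closest to a call. *Sparc* (Entrez gene 20692, mm10 chromosome 11, 55394159 to 55420080), a collagen-binding glycoprotein, was at 15.7, 19.2, 15.0, 11.2 and 12.3 CPM in control livers 1 to 5 and at 23.1, 19.9, 25.1, 18.6 and 26.6 CPM in MI-883 livers 1 to 5. The groups overlapped by 1 liver on each side, control 2 and MI-883 liver 4. The fitted log2 difference was 0.63 (SE 0.142, 95% interval 0.32 to 0.93), with an adjusted p of 0.0581 in edgeR and 0.00294 in DESeq2. Without control liver 2 or without MI-883 liver 4 the edgeR adjusted p was 0.0286 and 0.0494. These 2 were the only fits with 1 liver left out that called it, and without MI-883 liver 5 the edgeR adjusted p was 0.151.

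*Bgn*, the gene of the small proteoglycan biglycan, was at 49.2, 58.1, 53.1, 38.2 and 44.4 CPM in the control livers and at 70.2, 58.4, 67.6, 54.0 and 69.4 CPM in the MI-883 livers. Here MI-883 liver 4 fell below control liver 2 and the other 4 treated livers lay above all controls. On the log2 scale the edgeR fit gave 0.40 (SE 0.112), with an adjusted p of 0.127 in edgeR and 0.0342 in DESeq2. *Dcn*, the gene of decorin and the most abundant member of the list per kilobase, was at 172, 208, 130, 178 and 136 CPM in the control livers and at 245, 177, 199, 135 and 168 CPM in the MI-883 livers. Its groups overlapped almost completely, apart from a high MI-883 liver 1. Its log2 fold change was 0.16 (95% interval -0.18 to 0.51, edgeR adjusted p = 0.643), and that of *Lum*, the related lumican, was 0.24 (edgeR adjusted p = 0.748).

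All 7 matrix enzymes and inhibitors were fitted higher, by a median of 0.59 on the log2 scale, and 0 were called by either edgeR or DESeq2. *Timp2*, an inhibitor of metalloproteinases and, averaged over all 10 livers, the most abundant of them per kilobase, was at 12.7, 16.4, 11.2, 12.5 and 12.7 CPM in the control livers and at 18.7, 13.9, 17.6, 13.5 and 21.5 CPM in the MI-883 livers. Treated livers 1, 3 and 5 lay above all controls, and treated livers 2 and 4 below control liver 2. The log2 fold change was 0.38 (95% interval 0.08 to 0.68, edgeR adjusted p = 0.209). The inhibitors *Timp1* and *Timp3* had log2 fold changes of 0.64 and 0.27, and *Mmp2*, the gene of gelatinase A, one of 0.45. Of the exon bases of *Timp3*, 21.3% lie opposite those of *Syn3*.

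*Lox*, the gene of the collagen cross-linking enzyme lysyl oxidase, had the largest fitted fold change of the list after *Fbln1*, on few reads. Its counts were 11, 8, 3, 1 and 0 in control livers 1 to 5 and 13, 5, 21, 1 and 22 in MI-883 livers 1 to 5. MI-883 liver 4 was as low as control liver 4, and 4 of the 10 livers lay at or under 3 counts, the lower limit of a usable level here. The groups differed by 1.60 on the log2 scale in the fit with a 95% interval of 0.07 to 3.13 (edgeR adjusted p = 0.299). It was the only gene besides *Fbln1* with a fitted log2 fold change above 1, as 1.48% of all genes tested had. Its control libraries held 23 counts in all and its MI-883 libraries 62, so it met the minimum of 60 counts only through the treated livers. Nothing is read from this share, or from the place of *Lox* in the counts of genes fitted higher. The related *Loxl1* and *Loxl2* each had a log2 fold change of 0.59 (edgeR adjusted p = 0.424 and 0.245).

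The contractile and filament proteins held the 2 members fitted lower. *Des*, the gene of desmin, an intermediate filament of stellate and muscle cells, was at 5.61, 7.75, 5.52, 5.44 and 4.56 CPM in the control livers and at 5.88, 4.16, 4.89, 3.74 and 4.18 CPM in the MI-883 livers. Control liver 2 was the highest of all livers and 3 treated livers were below every control. The fitted log2 difference was -0.34 (95% interval -0.69 to 0.01, edgeR adjusted p = 0.336).

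*Tagln*, the gene of the actin-binding protein transgelin, was at 11.1, 14.2, 10.1, 11.5 and 11.1 CPM in the control livers and at 11.4, 9.60, 12.3, 9.49 and 12.4 CPM in the MI-883 livers. The groups covered the same range apart from a high control liver 2. On the log2 scale the edgeR fit gave -0.07 (edgeR adjusted p = 0.798), and it was 0.02 without control liver 2. Of its exon bases, 62.4% lie opposite those of an antisense transcript. *Acta2*, the gene of smooth muscle actin that marks activated stellate cells, was at 1.68, 2.19, 1.19, 1.19 and 1.05 CPM in the control livers and at 1.91, 1.95, 2.78, 1.26 and 2.48 CPM in the MI-883 livers. The treated livers lay above the control median, and 2 of them above all controls. Its log2 fold change was 0.50 (95% interval -0.04 to 1.05, edgeR adjusted p = 0.357).

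None of the 4 receptors and markers of stellate cells was called, and their log2 fold changes ran from 0.02 to 0.30. *Lrat*, the enzyme that esterifies retinol for storage, was at 26.3, 21.4, 19.8, 22.4 and 15.7 CPM in the control livers and at 30.9, 16.9, 24.9, 13.7 and 20.6 CPM in the MI-883 livers. The highest and the lowest liver were both treated ones. The log2 fold change was 0.02 (95% interval -0.40 to 0.44, edgeR adjusted p = 0.974), and its sign turned in 4 of the fits that left out 1 liver. *Reln*, a secreted protein of quiescent and activated stellate cells, was at 44.9, 55.7, 37.8, 46.8 and 46.7 CPM in the control livers and at 60.2, 53.4, 48.9, 54.3 and 56.0 CPM in the MI-883 livers. Every treated liver lay above the control median, while control liver 2 lay among the treated. The groups differed by 0.23 on the log2 scale in the fit (95% interval 0.03 to 0.44, edgeR adjusted p = 0.257). The PDGF receptor genes *Pdgfra* and *Pdgfrb* had log2 fold changes of 0.23 and 0.30 (edgeR adjusted p = 0.613 and 0.491). In bulk liver RNA, a different number of stellate cells and a different amount of RNA per cell cannot be told apart.

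The ligand *Tgfb1*, the main inducer of matrix genes in stellate cells, was at 11.0, 12.1, 10.5, 9.93 and 7.90 CPM in the control livers and at 16.3, 10.6, 11.7, 10.1 and 10.7 CPM in the MI-883 livers. MI-883 liver 1 stood apart from the other treated livers, which lay within the control range. The fitted log2 difference was 0.21 (95% interval -0.10 to 0.52, edgeR adjusted p = 0.509), and 0.07 without that liver.

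Most of the 35 genes other than *Fbln1* shared an order of livers that *Fbln1* did not follow. The orders given here were chosen after the values of these genes were seen, so their shares are a description and no test. MI-883 livers 1, 3 and 5 were the 3 highest of their group in 29 of the 35 genes (82.9%), as they were in 14.5% of all genes tested. For *Fbln1* the order from the top was 5, 4, 2, 1 and 3. Control livers 1 and 2 were the highest pair of their group in 24 of the 35 genes (68.6%), against 15.9% of all genes tested, while in *Fbln1* control liver 1 was the lowest. That order of *Fbln1* rests on only 10 to 21 counts per control library. Control liver 2 was the highest control in *Fbln1*, as it was in 28 of the 35 genes. Relative to the control mean, the median log2 level of the 35 genes was 0.25, 0.57, -0.09, -0.24 and -0.31 in control livers 1 to 5 and 0.68, 0.13, 0.74, 0.04 and 0.59 in MI-883 livers 1 to 5. By this median, MI-883 livers 2 and 4 lay below control livers 1 and 2. Of the 35 genes, 27, 3, 24, 2 and 24 were above all 5 controls in MI-883 livers 1 to 5. The labels give no batch for any liver.

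**Figure D4:**
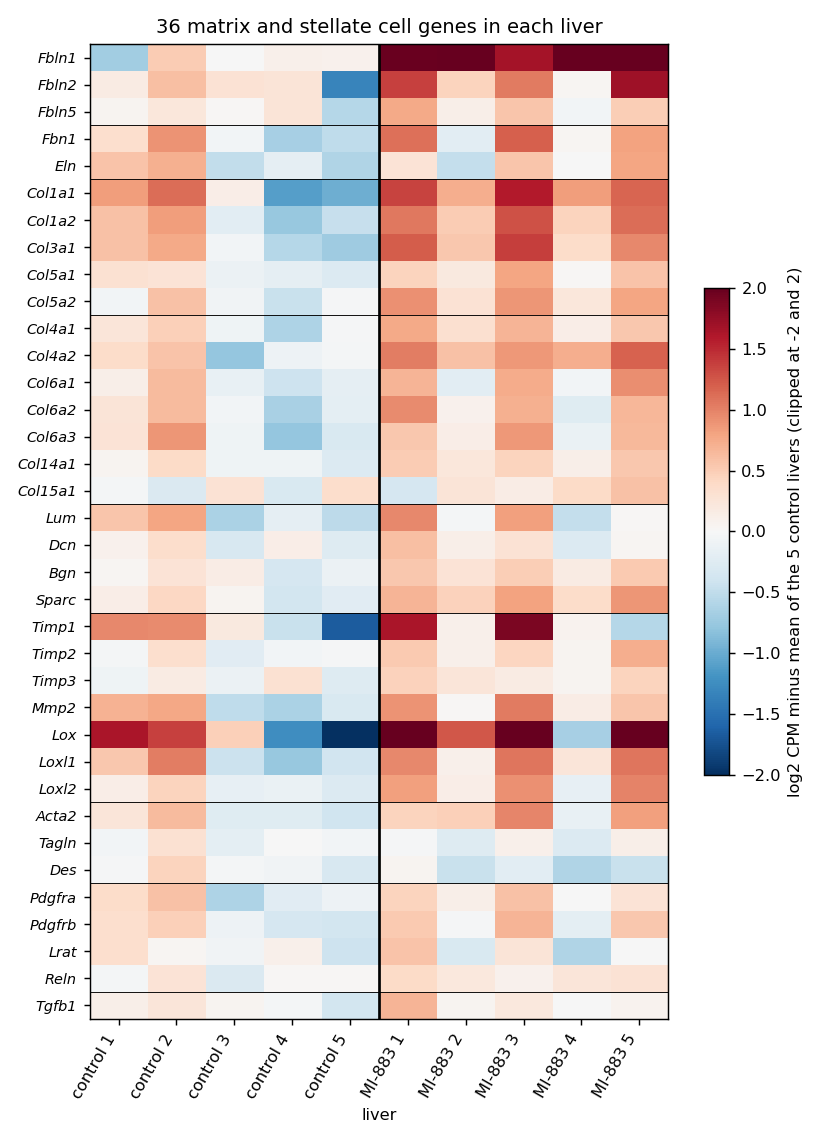
Log2 CPM of each of the 36 genes (rows) in each of the 10 livers (columns) minus the mean of the 5 control livers, on a colour scale clipped at -2 and 2. The columns of MI-883 livers 1, 3 and 5 are the most evenly red below the *Fbln1* row, MI-883 livers 2 and 4 are paler, and the *Fbln1* row is dark in all 5 treated livers.

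Beyond the 36, a further 193 genes in 17 lists of matrix biology, signalling and liver cell types were read, of which 164 were tested. Among these, 120 were fitted higher and 44 lower, where 51.0% of all genes tested were fitted higher. With edgeR 2 were called, both higher, where 0.764% of all genes were called higher and 0.265% lower. DESeq2 called 8 higher and 1 lower, where 2.20% and 1.30% of all genes were. These shares over all genes are the ones to set beside each list below. *Tgfbr2* (Entrez gene 21813, mm10 chromosome 9, 116087695 to 116175363), the type II receptor for TGF-beta, was at 56.5, 57.3, 43.9, 42.3 and 41.8 CPM in control livers 1 to 5 and at 77.7, 70.8, 83.8, 76.1 and 99.6 CPM in MI-883 livers 1 to 5. The groups did not overlap. On the log2 scale the edgeR fit gave 0.75 (SE 0.117, edgeR adjusted p = 0.00790), and it was called in all 10 fits without 1 liver.

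Of the 15 binding partners of fibulin-1, 11 were fitted higher and 4 lower, with none called by edgeR. The most abundant were the fibrinogen chains *Fga*, *Fgg* and *Fgb*, with log2 fold changes of -0.27, -0.41 and -0.38, and *Fgg* had an adjusted p of 0.168 in edgeR and 0.0481 in DESeq2. *Adamts1*, a matrix protease named here after its value was seen, had a log2 fold change of 0.35, with an adjusted p of 0.108 in edgeR and 0.0321 in DESeq2. Of the other elastic fibre and microfibril genes 9 were tested, 7 higher and 2 lower, with 0.27 for *Ltbp4*, 0.19 for *Emilin1* and 0.29 for *Ltbp1* on the log2 scale. Of the other collagens 15 were tested, 9 higher and 6 lower, with -0.10 for *Col18a1*, 0.50 for *Col27a1* and 0.07 for *Col5a3*. None of these genes was called by edgeR.

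Collagen processing enzymes were fitted higher in 15 of 17 genes, by a median of 0.26 on the log2 scale, and none was called by edgeR. *P4hb*, a subunit of prolyl 4-hydroxylase, had a log2 fold change of 0.24, with an adjusted p of 0.187 in edgeR and 0.0468 in DESeq2. For *Plod1*, a lysyl hydroxylase, these were 0.26, 0.0787 and 0.00615. The procollagen protease gene *Bmp1* had a log2 fold change of -0.08. Of 15 matrix degradation genes tested, 13 were fitted higher and 2 lower, by a median of 0.37, with 0.09 for *Mmp15*, 0.37 for *Mmp19* and -0.15 for *Mmp14* on the log2 scale. Of 18 further genes of TGF-beta signalling 14 were fitted higher and 4 lower, with *Tgfbr2* the only one called by edgeR, and the 4 PDGF ligand genes had log2 fold changes of 0.02 (*Pdgfa*), 0.17 (*Pdgfc*), 0.15 (*Pdgfb*) and -0.15 (*Pdgfd*).

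Marker lists of liver cell types are given because whole tissue was sequenced. Of the 15 stellate cell markers, 4 of which are also members, 12 were fitted higher and 3 lower, with a median of 0.08 on the log2 scale, and *Ecm1*, the most abundant, was at 0.01. Of 5 portal fibroblast markers tested 3 were higher and 2 lower (*Gas6* -0.04, *Entpd2* 0.26, *Dpt* 0.14), and of 4 smooth muscle markers 2 were higher and 2 lower (*Smtn* 0.25, *Myl9* -0.43, *Myh11* -0.32), while *Cnn1* was at or under 3 counts in the livers. The 7 hepatocyte markers were all fitted lower, by a median of -0.27 (*Alb* -0.16, *Apoa2* -0.31, *Ttr* -0.25), with summed levels of 73351 to 85465 CPM in the control and 62357 to 76864 CPM in the MI-883 livers. Of 9 sinusoidal endothelial markers 8 were higher and 1 lower (*Stab1* 0.18, *Clec4g* -0.13, *Stab2* 0.07). Of 10 Kupffer cell markers 8 were higher and 2 lower (*Clec4f* -0.18, *C1qa* 0.00, *C1qc* 0.16). Of 8 lymphocyte markers 3 were higher and 5 lower (*Cd79a* 0.03, *Nkg7* -0.49). No gene of these lists was called by edgeR.

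The summed markers of bile duct cells followed the order of the 35 genes in both groups, though treated livers 5 and 2 were close, at 65.2 and 63.4 CPM. The summed markers of mesothelium, the surface layer of the liver, followed it in the treated livers, while control liver 4 was the highest control. All 6 mesothelial markers were fitted higher, by a median of 1.21 on the log2 scale, and none was called (edgeR adjusted p from 0.240 to 0.648). Their summed level was 3.74, 4.94, 2.90, 6.26 and 1.75 CPM in control livers 1 to 5 and 6.67, 3.01, 7.74, 3.39 and 15.4 CPM in MI-883 livers 1 to 5. Treated livers 1, 3 and 5 were the highest, as in most matrix genes, and no mesothelial marker was at or under 3 counts in all livers. All 6 bile duct markers tested were fitted higher, by a median of 0.54, and none was called (*Spp1* 0.83, *Sox9* 0.53). Their sums were 129, 84.6, 40.3, 44.4 and 33.9 CPM in the control livers and 161, 63.4, 202, 45.8 and 65.2 CPM in the MI-883 livers, most of it *Spp1*. The part of these cells in the levels of the matrix genes was not tested.

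**Figure D5:**
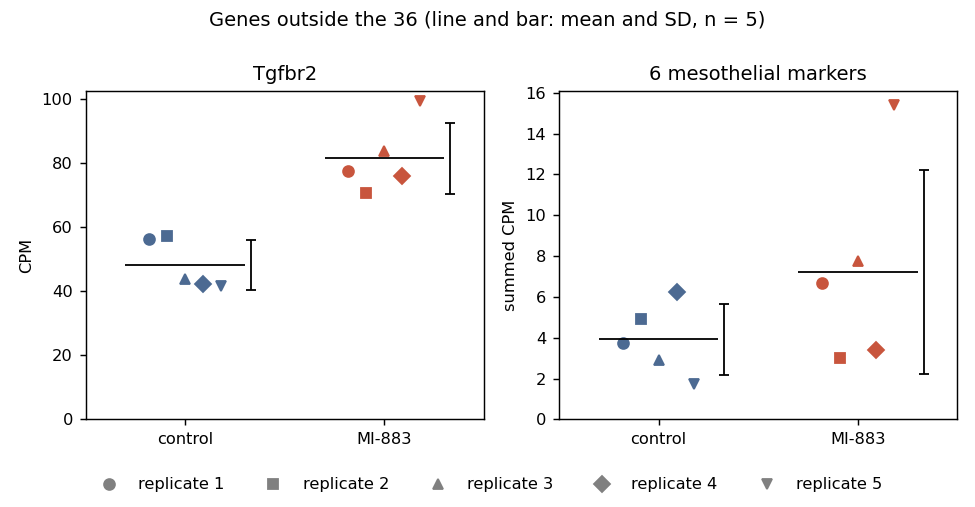
Levels in each of the 5 control and 5 MI-883 livers of *Tgfbr2* (CPM, vertical axis) and of 6 mesothelial markers (summed CPM, vertical axis), with line and bar for mean and SD. The groups are apart in *Tgfbr2* and overlap in the mesothelial sum, where MI-883 liver 5 is highest at 15.4 CPM.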

How the data were processed

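Total RNA from 10 livers was sequenced as paired ends, 520 ng per library, with a kit that marks strand. The authors trimmed reads with fastp 0.23.0, aligned them to mm10 with STAR and made gene counts with featureCounts. Versions of the last tools, the annotation and the strand setting are not given in the sources used here. The authors deposited raw counts per Entrez gene, without normalization. Reads from a gene and from an antisense partner therefore cannot be told apart with certainty, which touches *Tagln*, *Timp3* and *Fbn1* most.

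Symbols came from a RefSeq table of GRCm38.p6, which matched 16644 of 16647 genes, and exon lengths from GENCODE M21 on the same build. Groups and replicate numbers were taken from the sample titles. A sum of 60 counts across the 10 livers was required of a gene for testing, which 13219 met. The study's own filter, 60 counts in every sample, would leave out 10 of the 36 members, among them *Fbln1*. The quasi-likelihood test of edgeR 4.0.16 (R 4.3.3) was applied to the counts with treatment alone in the model and TMM factors of 0.949 to 1.10. Adjusted p values follow Benjamini and Hochberg over all tested genes, with a threshold of 0.05. CPM use the TMM-scaled library size, and 3 counts, taken as the lower limit of a usable level, correspond to 0.0838 to 0.133 CPM, which covers counting error only. Ratios were log2 differences of CPM with a prior count of 0.5, given without a test because *Fbln1* was singled out for its rise. Alternatives were DESeq2 1.42.0, other scalings and filters, a replicate block, 1 surrogate variable (sva 3.50.0), replicates 1 and 2 modelled apart from 3 to 5, and leaving out each liver. On simulated counts for this comparison with 200 of 13144 genes changed, edgeR called 92.0% of genes raised by 1 and 100% of those raised by 2 on the log2 scale. The changed genes were drawn from those with a mean above 1 CPM, and smaller changes were not simulated. These shares therefore do not cover changes of the size fitted for most members, nor members at lower levels.

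The members and the gene lists were chosen with earlier results of these data known, among them the rise of *Fbln1*. All members are named by role. From each other list, the genes called by edgeR are named, or otherwise up to 3 with the highest mean CPM, together with the relatives of the fibulins. Some genes of these lists are counted but not reported by name here. Values in every liver are given for the fibulins, for the most abundant member of each role per kilobase and, chosen after their values were seen, for further members near the threshold.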

Additional observations from a re-analysis of the deposited data

Results flagged for a closer look

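*Tgfb1* was at 16.3 CPM in MI-883 liver 1, and the nearest other treated liver was at 11.7 CPM. The gap was 0.735 of the range of the group, beyond Dixon's critical value of 0.71 for 5 samples. The level of each of the 36 genes was examined in both groups, 72 groups in all, of which about 5%, or 3.60, would be expected to stand out by chance, and this was the only one.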

How the results depend on the processing

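The 1 member called higher by edgeR became 4 with DESeq2 (*Fbln1*, *Col4a2*, *Sparc*, *Bgn*), 4 with 1 surrogate variable (*Fbln1*, *Col3a1*, *Col4a2*, *Sparc*), 2 with no filter on low counts (*Fbln1*, *Sparc*), 2 with replicates 1 and 2 modelled apart from 3 to 5 (*Fbln1*, *Col4a2*) and 0 with 60 counts in every sample, a filter that removes *Fbln1* itself. It was 1 to 3 when 1 liver was left out, with 3 without control liver 2 (*Fbln1*, *Col4a2*, *Sparc*) and 2 without MI-883 liver 4 (*Fbln1*, *Sparc*). *Fbln1* was called in every one of these fits that tested it. No member was called lower in any fit. Between 32 and 35 of the 36 members were fitted higher under the alternatives that tested all 36, and the median log2 fold change of the members was 0.346 to 0.616 with 1 liver left out. Over all genes, 136 were called by edgeR, 463 by DESeq2, 254 with the surrogate variable and 89 with the replicate block. Total counts as the library size moved the median over all genes to 0.0489. The 2 called genes of the other lists became 9 with DESeq2 and 7 with the surrogate variable, and were 1 to 4 with 1 liver left out, the highest without control liver 1. *Tgfbr2* was called in all of these fits. The log2 fold change of *Lrat* was -0.19 and that of *Lum* -0.09 with the surrogate variable. With 1 liver left out, *Lrat* ran from -0.15 to 0.14 and *Tagln* from -0.12 to 0.02.

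Deviations of same-numbered livers from their group means had correlations of 0.373, -0.11, -0.0981, 0.0775 and 0.0939 for numbers 1 to 5. The sample titles name no pairing, and the main fit used none. With the replicate block, 1 member (*Fbln1*) and 1 gene of the other lists (*Tgfbr2*) were called, and *Lrat* was at -0.01. Pairing livers by number cannot change the mean difference of a ratio, so it says nothing on how stable the ratios are. The ratios of *Fbln1* to *Fbln2*, *Fbln5* and *Lrat* differed by 1.63, 2.17 and 2.56 in either form. With 1 liver left out, these ratios ran from 1.24 to 1.98, 1.89 to 2.44 and 2.24 to 2.85, and the ratio to *Col1a1* from 1.03 to 1.74. The cause of these shifts was not tested.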
